A study of Mus musculus with 27 samples.

Results

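Mitochondrial genome transcripts were measured by RNA sequencing in mouse CD4+ and CD8+ T cells kept at rest or stimulated through the T cell receptor, with and without Raptor or Rictor. The transcripts are all rows of the count table whose gene symbol, matched from the Ensembl gene ID to the GRCm38 annotation, starts with mt-. Of the 37 genes annotated on the mitochondrial chromosome, 28 had a row among the 26802 rows of the table. They comprise both of the 2 ribosomal RNAs, 11 of the 13 protein-coding genes and 15 of the 22 tRNAs. After a filter on low counts 19 of them were tested among 10493 genes, namely 2 rRNAs, 8 mRNAs and 9 tRNAs. The other 9 members with a row had 1 to 37 counts in all libraries summed.

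The 27 libraries form 9 groups of 3. Stimulated cultures had plate-bound antibodies to CD3 and CD28 (10 µg/ml), and resting cultures had the survival cytokine IL-7 (5 ng/ml), each for 48 h. Stimulated cultures had no IL-7 and resting ones no antibodies, so effects of the antibodies and of IL-7 cannot be told apart. Stimulation stands below for the difference between these cultures. Raptor is the scaffold that makes the kinase mTOR into mTORC1, a driver of growth and protein synthesis, and Rictor is its counterpart in mTORC2. Raptor KO mice were B6-Tg(Cd4-cre)1Cwi-Rptortm1.1Dmsa and gave stimulated and resting CD4+ and CD8+ cells. Rictor KO mice were B6-Tg(Cd4-cre)1Cwi-Rictortm1.1Klg and gave stimulated CD8+ cells. WT mice were B6-wt, with no Cre transgene named, and gave stimulated and resting cells of both types. In comparisons of KO with WT the gene loss and the Cre transgene therefore cannot be told apart. The Cre is driven by Cd4, which is active in developing thymocytes, so deletion precedes the culture in both lineages. Cells came from pooled lymph node and spleen, were sorted magnetically and then sorted as live. Neither age nor sex of the mice is given in the sources used here, nor whether libraries of a group came from separate mice, so the p-values measure the spread between these samples, which may be technical.

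The mitochondrial chromosome encodes only subunits of the respiratory chain and the RNAs needed to translate them inside the organelle. Both strands are transcribed into long precursors, which are cut mostly at the tRNAs that punctuate the genes, so every mature RNA of a strand starts from the same precursor and levels diverge through processing and decay. The rRNAs mt-Rnr1 (12S) and mt-Rnr2 (16S) lie at the start of the heavy-strand precursor and can also be made from a shorter transcript. T cell stimulation is known for a large expansion of mitochondria and respiration, in which mTORC1 promotes translation of nuclear mRNAs for mitochondrial proteins.

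Several mitochondrial genes have near-identical copies in the nuclear chromosomes, and these sequences are shown because the share of copied sequence is set against the counts in the next paragraph. The start of mt-Atp6 (chrM:7927-7986, plus strand), a subunit of ATP synthase, is set here against the pseudogene Gm10925 (chr1:24614592-24614651, minus strand), both from GENCODE M21 transcripts on GRCm38. The next pair sets mt-Cytb (chrM:14146-14205, plus strand), the subunit of complex III encoded in mitochondria, against the pseudogene Gm11410 (chr4:80003990-80004049, plus strand), with differing bases in capitals.
mt-Atp6: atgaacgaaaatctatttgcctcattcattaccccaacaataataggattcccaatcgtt
Gm10925: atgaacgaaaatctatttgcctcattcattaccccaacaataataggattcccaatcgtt
mt-Cytb: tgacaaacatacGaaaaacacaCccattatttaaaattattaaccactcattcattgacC
Gm11410: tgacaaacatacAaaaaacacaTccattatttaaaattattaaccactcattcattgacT
The mt-Atp6 stretch of 60 bases had 0 differences from its copy, and the match ran over 678 bases at 100% identity. The mt-Cytb stretch had 3 differences, and its match ran over 1142 bases at 92.9% identity.

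The effect of the copies on the counting was not tested. The share of 50-base windows found unchanged in a transcript of a nuclear gene was 99.5% for mt-Atp6, 99.9% for mt-Co3 (complex IV) and 98.8% for mt-Nd4l (complex I), and these genes had 4, 1 and 1 counts in the 27 libraries summed. The share was 0% for mt-Rnr1, mt-Nd1, mt-Nd6 and mt-Cytb, which had 2213, 57.5, 48.9 and 53.2 counts per base. mt-Nd3 had 98.0% of its windows shared and 3796 counts, so a high share did not go with few counts in every gene. mt-Co1 and mt-Nd4 shared 51.1% and 62.2% of their windows and had 75.3 and 18.1 counts per base. The copies themselves held few counts, with 178 in all libraries for Gm28438, which matches mt-Nd3 over 345 bases at 99.7% identity. How multi-mapping reads were handled is not given in the sources used here. mt-Co2 (100% of windows shared), mt-Atp8 (0% shared) and 7 tRNAs were not analysed here. With mt-Atp6, mt-Co3 and mt-Nd4l near 0, complex V was unmeasured and complex IV rested on mt-Co1 alone. mt-Nd5 and mt-Nd6 overlap at their ends on opposite strands, and the strand setting of the counting is unknown, so reads of that overlap cannot be told apart.

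**Figure D1:**
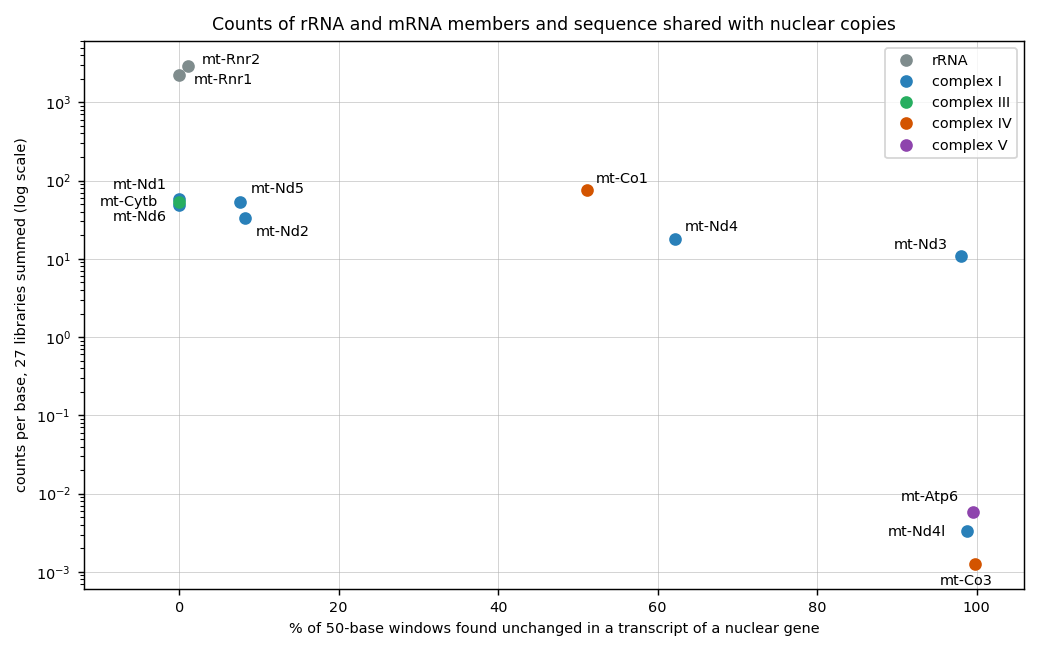
Counts per base of the rRNA and mRNA members (27 libraries summed, log scale) against the percentage of their 50-base windows found unchanged in a transcript of a nuclear gene; colours give the respiratory complex or rRNA. The 3 genes under 0.01 counts per base all share over 98% of their windows, and mt-Nd3 shares 98.0% at 10.9 counts per base.

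The tRNAs the results name are printed next as GRCm38 gives them, 5′ to 3′ with T for U and the anticodon in capitals, because each one's strand sets the precursor it comes from. mt-Tf (phenylalanine, chrM:1-68), mt-Tv (valine, chrM:1025-1093) and mt-Tm (methionine, chrM:3845-3913) lie on the plus strand, whose genes are made from the heavy-strand precursor. mt-Tq (glutamine, chrM:3772-3842) and mt-Tp (proline, chrM:15356-15422) lie on the minus strand, as does mt-Nd6.
mt-Tf: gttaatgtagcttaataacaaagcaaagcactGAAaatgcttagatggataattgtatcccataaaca
mt-Tv: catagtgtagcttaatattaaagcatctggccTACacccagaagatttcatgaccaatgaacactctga
mt-Tm: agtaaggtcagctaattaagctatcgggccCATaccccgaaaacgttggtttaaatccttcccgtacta
mt-Tq: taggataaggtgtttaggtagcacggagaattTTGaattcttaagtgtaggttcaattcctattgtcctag
mt-Tp: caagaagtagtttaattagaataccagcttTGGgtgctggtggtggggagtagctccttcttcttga
The sequences hold 67 to 71 bases. The RNeasy columns named in the labels bind RNAs of this size poorly, and counts of mature tRNAs and of unprocessed precursors cannot be told apart here.

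Libraries held 8640699 to 16817347 counts, of which the nuclear 45S rRNA precursor Rn45s took 81.1% to 88.4%. The labels describe libraries from total RNA and name neither poly(A) selection nor rRNA depletion. The remaining 1522199 to 2515583 counts are the base of the CPM (each library's counts set to the same total) used for sums, and mitochondrial RNA made up 7.53% to 23.9% of them. Nuclear protein-coding genes made up 18.4% to 62.6%, so a share can move with the other RNA in a library. Tests and gene levels therefore used TMM scaling, which sets libraries level over most genes, and sums are also given per 1000 nuclear protein-coding counts. All these scales are relative and none gives RNA per cell, so a lower value need not mean less mitochondrial RNA per cell. In bulk samples fewer mitochondria and less RNA in each cannot be told apart either. Cd4 was 171 to 372 TMM-scaled CPM in CD4+ libraries and at most 5.5 in CD8+ libraries, and Cd8a was 82.8 to 403 in CD8+ libraries and at most 4.6 in CD4+ libraries. Rptor was 17.0 to 25.1 in stimulated Raptor KO CD4+ libraries, against 23.9 to 30.5 in WT, and 17.3 to 22.6 in stimulated Raptor KO CD8+ libraries, against 18.4 to 28.9 in WT. At rest it was 23.5 to 30.7 in Raptor KO CD4+ libraries, against 31.0 to 39.0 in WT, and 34.8 to 41.9 in Raptor KO CD8+ libraries, against 37.6 to 52.6 in WT. Its mean was lower in Raptor KO in all 4 pairs, with no overlap in resting CD4+ cells. Rictor was 38.1 to 40.9 in Rictor KO libraries, against 36.8 to 49.7 in WT. Counts over whole genes hold the exons outside the deleted part, so neither gene's level checks its deletion. Summed markers of B cells, myeloid cells, NK cells and red cells stayed at or under 25.8, against 412 to 1183 for T cell markers.

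Mitochondrial rRNA far exceeded mRNA in every group. Per kilobase, stimulated WT CD4+ cells averaged 41002 ± 7771 CPM of mt-Rnr2 and 42545 ± 9949 CPM of mt-Rnr1, and resting WT CD4+ cells 91550 ± 10351 CPM of mt-Rnr2 and 62682 ± 11269 CPM of mt-Rnr1 (SD, n = 3). The most abundant mRNA per kilobase was mt-Co1 at 1362 ± 92.0 CPM in stimulated and 1740 ± 246 CPM in resting WT CD4+ cells, and the least abundant tested one was mt-Nd3 at 286 ± 48.8 CPM in stimulated and 150 ± 38.6 CPM in resting ones. The levels of the rRNAs per kilobase lay within their spread of each other in stimulated WT CD4+ cells, and mt-Rnr2 was the higher in resting ones.

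Summed rRNA was lower in stimulated than in resting WT cells. It was 129963, 94910 and 91613 CPM of non-Rn45s counts in stimulated WT CD4+ libraries, against 178062, 206102 and 229918 CPM in resting ones. In WT CD8+ cells it was 101145, 100199 and 71986 CPM stimulated, against 148647, 138654 and 152150 CPM resting. The stimulated and resting libraries did not overlap in either WT lineage, while those of Raptor KO did overlap in both lineages: 136029, 126705 and 145621 CPM in stimulated against 195427, 186284 and 138924 CPM in resting CD4+ cells, and 107690, 140903 and 156762 CPM in stimulated against 139613, 146509 and 89338 CPM in resting CD8+ cells. Per 1000 nuclear protein-coding counts, all 15 stimulated libraries (111 to 388) lay below all 12 resting ones (471 to 659).

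Summed mRNA went the other way on the CPM scale in 3 of the 4 pairs of groups. It was 9979.9, 12828 and 7353 CPM in stimulated WT CD8+ cells, against 4812, 4451 and 6605 CPM in resting ones. Raptor KO CD8+ cells had 8667, 14615 and 14633 CPM stimulated, against 4937, 5142 and 3299 CPM resting, and Raptor KO CD4+ cells 8701, 8099.6 and 11354 CPM stimulated, against 6285, 6323 and 4188 CPM resting. In these 3 pairs every stimulated library was above every resting one. In WT CD4+ cells the values overlapped, at 9079, 7404 and 9193 CPM stimulated, against 5203, 6541 and 8811 CPM resting.

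Against nuclear protein-coding counts, stimulated Raptor KO cells stood above resting cells. Per 1000 such counts, summed mRNA was 28.0, 32.0 and 31.6 in stimulated Raptor KO CD8+ cells and 22.5, 24.8 and 25.0 in stimulated Raptor KO CD4+ cells. Stimulated WT cells had 19.2, 26.4 and 11.9 (CD8+) and 23.9, 13.5 and 14.7 (CD4+). The 12 resting libraries, from both genotypes and lineages, spanned only 16.7 to 20.5. Every stimulated Raptor KO library was above every resting library, and stimulated WT libraries lay on both sides of them. Stimulated Rictor KO CD8+ cells, which have no resting counterpart, had 19.0, 13.4 and 31.1 and also lay on both sides. Summed tRNA was 717 to 2591 CPM in stimulated and 270 to 1007 CPM in resting libraries and spread widely within groups.

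**Figure D2:**
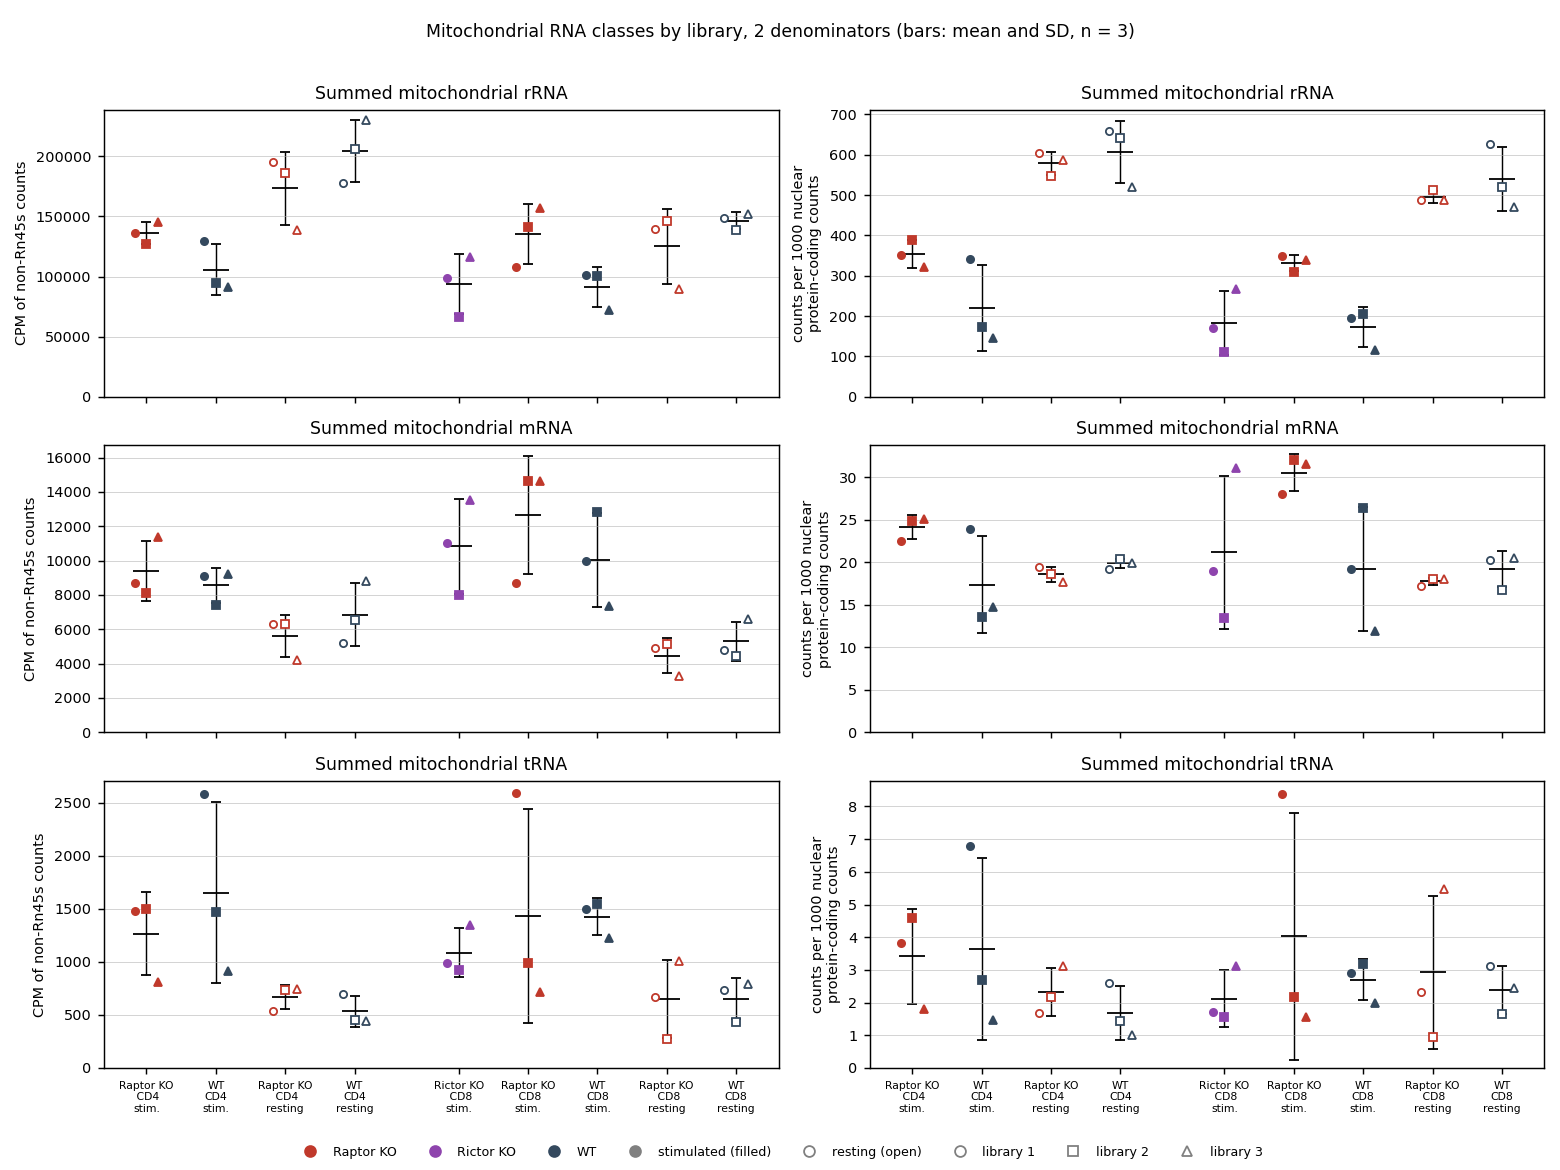
Summed mitochondrial rRNA, mRNA and tRNA in each library, as CPM of non-Rn45s counts (left) and per 1000 nuclear protein-coding counts (right), by group; bars are the mean and SD of 3 libraries. On the right, rRNA of all stimulated libraries (111 to 388) lies below all resting ones (471 to 659), and mRNA of stimulated Raptor KO libraries (22.5 to 32.0) lies above all resting ones (16.7 to 20.5).

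Ratios within a library do not depend on scaling, and 3 of the 7 compared first separated the stimulated from the resting libraries. The resting ones are of WT and Raptor KO cells alone. The ratio of summed rRNA to summed mRNA counts was 7.81 to 15.6 (median 10.1) in the 15 stimulated libraries and 23.0 to 34.2 (median 30.2) in the 12 resting ones. The ratio of mt-Rnr2 to mt-Rnr1 counts was 1.35 to 2.10 in stimulated and 2.19 to 3.59 in resting libraries. mt-Co1 made up 21.0% to 27.8% of mitochondrial mRNA counts in stimulated and 27.3% to 44.7% in resting libraries, and mt-Nd6 made up 5.71% to 7.71% in stimulated and 3.81% to 5.52% in resting ones. Stimulated and resting libraries did not overlap in the rRNA to mRNA ratio, in mt-Rnr2 to mt-Rnr1 or in the share of mt-Nd6, and they overlapped between 27.3% and 27.8% in the share of mt-Co1. Outside the 7, mt-Rnr2 over mt-Nd1 counts also separated them, at 33.4 to 78.9 in stimulated and 137 to 334 in resting libraries. For mt-Nd5 over mt-Nd6 they overlapped, at 2.85 to 4.16 in stimulated and 3.64 to 5.19 in resting libraries. The other 3 of the 7 overlapped as well. Summed mRNA over summed tRNA counts was 3.34 to 20.4 in stimulated and 3.28 to 19.7 in resting libraries, mt-Cytb over mt-Nd1 was 0.851 to 1.27 in stimulated and 1.03 to 1.63 in resting ones, and mt-Co1 over mt-Nd1 was 1.37 to 2.20 in stimulated and 1.92 to 6.14 in resting ones.

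Among stimulated libraries of the same lineage the ratio of mt-Rnr2 to mt-Rnr1 also separated KO from WT. It was 1.96, 2.10 and 2.08 in Raptor KO CD4+ cells, against 1.55, 1.46 and 1.83 in WT CD4+ cells. In CD8+ cells it was 1.70, 1.96 and 2.09 in Raptor KO and 1.69, 2.01 and 1.74 in Rictor KO, against 1.58, 1.35 and 1.57 in WT. In this ratio no KO library overlapped with the WT libraries of its lineage, and the KO values lay between those of WT stimulated and WT resting cells. None of the other ratios given above separated stimulated Raptor KO from WT in CD4+ cells. In CD8+ cells some separated 1 KO only, and mt-Nd5 over mt-Nd6 separated both in opposite directions. It was 3.93, 4.09 and 3.73 in Raptor KO and 3.04, 3.05 and 2.85 in Rictor KO, against 3.53, 3.59 and 3.23 in WT. The rRNA to mRNA ratio of both KOs overlapped with WT. With 3 libraries a group an exact two-sided test cannot go below p = 0.10, so none is given.

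**Figure D3:**
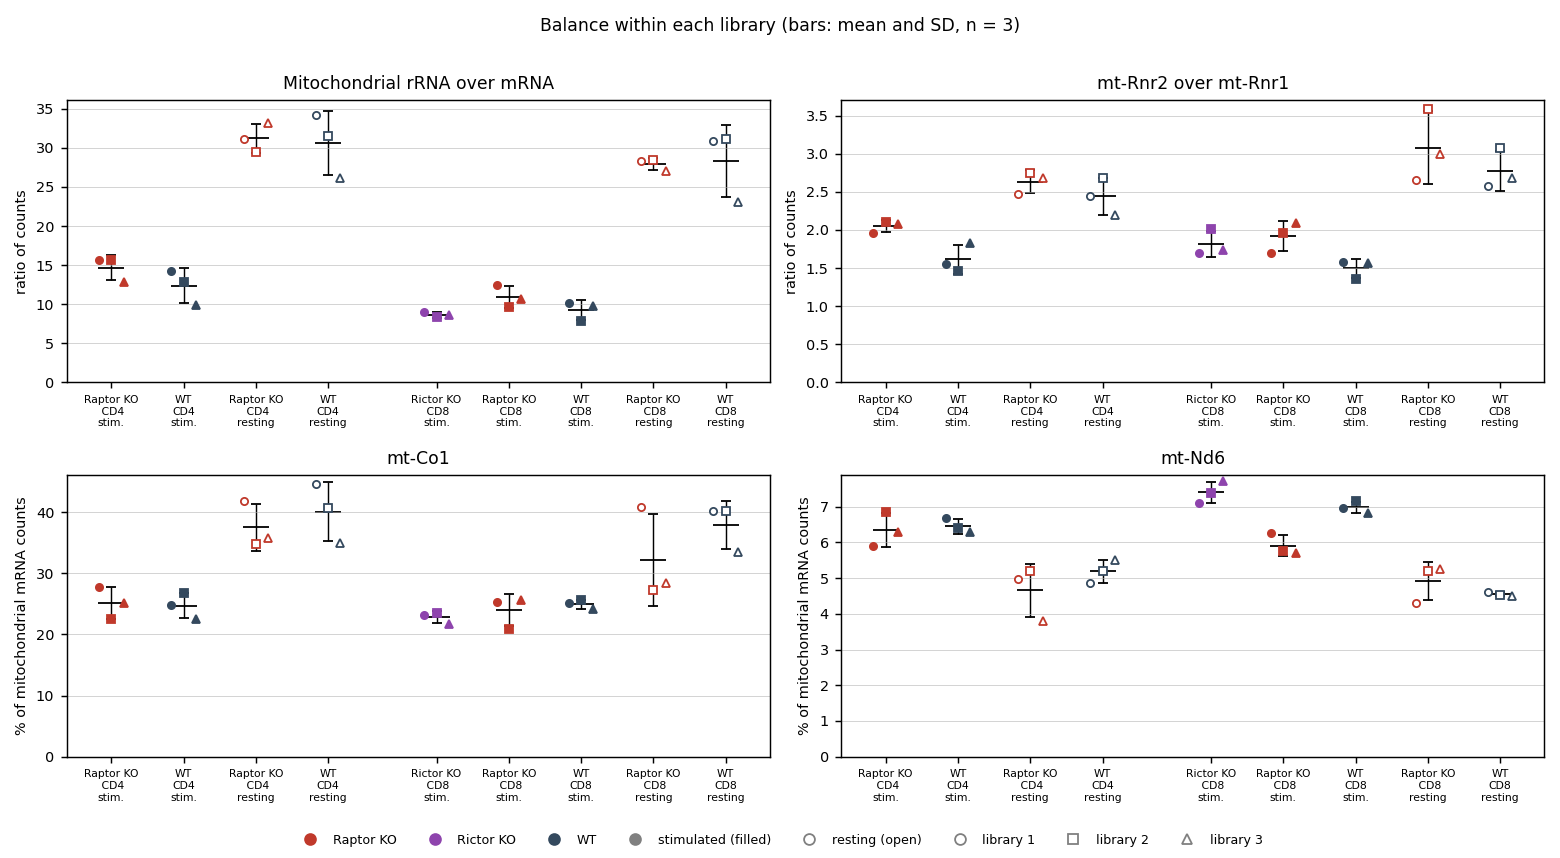
Within-library balance by group: mitochondrial rRNA over mRNA counts, mt-Rnr2 over mt-Rnr1 counts, and the percentage of mitochondrial mRNA counts from mt-Co1 and from mt-Nd6; bars are the mean and SD of 3 libraries. The rRNA to mRNA ratio is 7.81 to 15.6 in stimulated and 23.0 to 34.2 in resting libraries. Within each lineage, mt-Rnr2 over mt-Rnr1 is higher in stimulated Raptor KO and Rictor KO than in stimulated WT libraries.

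Gene by gene, both rRNAs were lower in stimulated than in resting WT cells. In WT CD4+ cells 3 members rose and 3 fell of the 19 tested at an adjusted p under 0.05 (edgeR's quasi-likelihood test with Benjamini-Hochberg adjustment over all genes). Of all tested genes 64.9% were called there, 32.4% higher and 32.5% lower. Among the 3 that rose, mt-Tf had 9 stimulated and 0 resting libraries at the filter's minimum. It was thus tested through the stimulated groups, and its place in this count is a description. In WT CD8+ cells 2 members rose and 2 fell, and of all genes 62.8% were called, 32.0% higher and 30.8% lower. mt-Rnr2, the RNA of the large mitochondrial ribosomal subunit, was at 81046, 40748 and 37188 TMM-scaled CPM in stimulated WT CD4+ libraries, against 168490, 167580 and 131659 in resting ones, and its log2 fold change was -1.56 ± 0.41 (SE; adjusted p = 0.0012). In WT CD8+ cells it was at 46308, 46939 and 28128 stimulated, against 165212, 143112 and 126415 resting, with a log2 fold change of -1.84 ± 0.42 (SE; adjusted p = 0.000212). The stimulated libraries lay below the resting ones throughout. In a fit of the WT CD4+ groups alone mt-Rnr2 missed the threshold (log2 fold change -1.62 ± 1.00, adjusted p = 0.16).

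mt-Rnr1, the RNA of the small subunit, had smaller log2 fold changes. It was at 52349, 27863 and 20297 TMM-scaled CPM in stimulated WT CD4+ libraries, against 68756, 62443 and 60066 in resting ones (log2 fold change -0.93 ± 0.38, adjusted p = 0.0303). In WT CD8+ cells it was at 29383, 34705 and 17967 stimulated, against 64211, 46529.6 and 47155 resting (log2 fold change -0.94 ± 0.38, adjusted p = 0.0287). The groups did not overlap on this scale. With each of the 6 libraries of a comparison left out in turn, mt-Rnr1 was called in 2 of 6 fits in CD4+ cells and 4 of 6 in CD8+ cells, and mt-Rnr2 in all 6 in both. When libraries were scaled to their totals without Rn45s, which moved the median of all genes by 0.46 (CD4+) and 0.87 (CD8+), mt-Rnr2 had log2 fold changes of -1.16 and -0.98 and mt-Rnr1 of -0.56 and -0.09, the last 2 no longer called.

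In Raptor KO cells edgeR with TMM scaling called neither rRNA after stimulation, while DESeq2 called mt-Rnr2 lower in CD4+ (log2 fold change -0.70, adjusted p = 0.0141) and CD8+ cells (log2 fold change -0.61, adjusted p = 0.0316). Scaling to totals with Rn45s also called it lower in CD4+ cells (log2 fold change -0.82, adjusted p = 0.0265). mt-Rnr2 was at 90262, 101498 and 86316 TMM-scaled CPM in stimulated Raptor KO CD4+ cells, against 151371, 143860 and 151171 in resting ones (log2 fold change -0.68 ± 0.41, adjusted p = 0.159). In Raptor KO CD8+ cells it was at 87106, 83055 and 92522 stimulated, against 126191, 137531 and 131278 resting (log2 fold change -0.59 ± 0.41, adjusted p = 0.221). The stimulated libraries were again all below the resting ones. The log2 fold changes of mt-Rnr1 were -0.32 ± 0.38 (CD4+) and 0.09 ± 0.38 (CD8+). For mt-Rnr2 the differences in stimulation response between Raptor KO and WT, tested as an interaction, were 0.87 ± 0.57 (CD4+, adjusted p = 0.402) and 1.25 ± 0.58 (CD8+, adjusted p = 0.264) and were not called, so the rRNA response is not shown to differ between genotypes.

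The mRNAs of complex I, the NADH dehydrogenase that starts the respiratory chain, passed the test mostly in Raptor KO cells, although the interactions given further on do not show the response to differ between genotypes. In Raptor KO cells 7 members rose and 0 fell in the CD4+ lineage, where 52.0% of all genes were called, 27.9% higher and 24.1% lower. In CD8+ cells 6 rose and 0 fell, where 55.6% of all genes were called, 29.5% higher and 26.0% lower. The complex I mRNAs mt-Nd1, mt-Nd2, mt-Nd3, mt-Nd5 and mt-Nd6 were among them in both lineages. mt-Nd1 was at 1388, 1889 and 2024 TMM-scaled CPM in stimulated Raptor KO CD8+ cells, against 522, 747 and 956 in resting ones, and at 1144, 1310.3 and 1502 in stimulated Raptor KO CD4+ cells, against 533, 655 and 766 in resting ones. Its log2 fold changes were 1.25 ± 0.31 (SE; adjusted p = 0.002) in CD8+ and 1.02 ± 0.31 (SE; adjusted p = 0.00983) in CD4+ cells, with no overlap of libraries in either.

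mt-Nd2 was at 1003, 1272 and 1031 in stimulated Raptor KO CD8+ cells, against 381, 487 and 513 in resting ones (log2 fold change 1.26 ± 0.29, adjusted p = 0.00109). mt-Nd3, a small subunit, was at 124, 99.3 and 124 stimulated, against 51.9, 43.2 and 34.8 resting (log2 fold change 1.40 ± 0.36, adjusted p = 0.00286). mt-Nd5, among the subunits that pump protons, was at 2737, 3071 and 2719 stimulated, against 1303, 1357 and 1235 resting (log2 fold change 1.13 ± 0.26, adjusted p = 0.000406). All 9 stimulated values of these genes were above the resting values of the same gene. mt-Nd6, the only mRNA encoded on the minus strand, was at 696, 751 and 729 stimulated, against 265, 321 and 339.6 resting (log2 fold change 1.23 ± 0.31, adjusted p = 0.00198). In Raptor KO CD4+ cells the log2 fold changes of mt-Nd2, mt-Nd3, mt-Nd5 and mt-Nd6 were 0.95 ± 0.29, 1.20 ± 0.36, 0.65 ± 0.26 and 0.96 ± 0.30 (adjusted p = 0.0102, 0.00881, 0.0362 and 0.0124). mt-Nd4 did not pass the test in either lineage, with log2 fold changes of 0.63 ± 0.39 (CD4+) and 0.78 ± 0.39 (CD8+).

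In WT cells the complex I mRNAs gave fewer calls with TMM scaling, and that contrast in calls depended on the scaling. Scaled to totals without Rn45s, 4 complex I mRNAs were called higher in WT CD4+ and 6 in WT CD8+ cells, and 6 in both Raptor KO lineages. Over all members 10 (CD4+) and 11 (CD8+) were then called higher in Raptor KO, against 12 and 13 in WT. Of all 10493 genes, this scaling called 2894 (CD4+) and 4021 (CD8+) higher in Raptor KO, against 4081 and 5315 in WT. mt-Nd2 was at 768, 1031 and 438 TMM-scaled CPM in stimulated WT CD8+ cells, against 469.6, 369 and 559 in resting ones (log2 fold change 0.68 ± 0.29, adjusted p = 0.0486). mt-Nd6 was at 521, 747 and 322 stimulated, against 343, 276 and 339.7 resting (log2 fold change 0.73 ± 0.30, adjusted p = 0.0432). In both genes the third stimulated library lay within the resting range, and with 1 library left out in turn mt-Nd2 was called in 2 and mt-Nd6 in 1 of 6 fits. Both calls were also lost with the library codes of the sample titles as a block (adjusted p = 0.0777 for mt-Nd2 and 0.0645 for mt-Nd6). The same held with TMM over nuclear protein-coding genes (adjusted p = 0.0627 and 0.0563), and each of these fits left 0 members higher. In WT CD4+ cells the main edgeR fit called no complex I mRNA, with log2 fold changes between -0.11 (mt-Nd5) and 0.70 (mt-Nd1). That fit used all libraries, TMM scaling, the filter on low counts and no block. DESeq2, median-ratio size factors, no filter on low counts and a fit of only the groups compared each called mt-Nd1 and mt-Nd2 higher. The first stimulated WT CD4+ library stood apart, with mt-Nd1 at 1297 against 700.5 and 951 in the other two, and with 38.0% nuclear protein-coding counts against 54.8% and 62.6%. Without it 2 members rose and 3 fell in this comparison, and mt-Nd1 had a log2 fold change of 0.48 that was not called.

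mt-Cytb, a core subunit of complex III, also rose in Raptor KO cells. It was at 1758, 2340.3 and 2000.2 TMM-scaled CPM in stimulated Raptor KO CD8+ cells, against 853, 993 and 986 in resting ones (log2 fold change 1.11 ± 0.27, adjusted p = 0.000969). In Raptor KO CD4+ cells it was at 1246, 1427 and 1583 stimulated, against 785, 882 and 977 resting (log2 fold change 0.69 ± 0.27, adjusted p = 0.0322). Stimulated libraries were all higher in both lineages, and with 1 library left out in turn the CD4+ call held in 2 of 6 fits. In WT cells its log2 fold changes were 0.22 ± 0.26 (CD4+) and 0.22 ± 0.26 (CD8+) and not called.

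mt-Co1, the catalytic subunit of cytochrome c oxidase (complex IV), was the mRNA that fell. It was at 2318, 1431 and 1302 TMM-scaled CPM in stimulated WT CD4+ libraries, against 3096, 2969 and 2569 in resting ones, with no overlap (log2 fold change -0.77 ± 0.26, adjusted p = 0.00823). With 1 library left out in turn the call held in 5 of 6 fits and was lost without the third stimulated library (log2 fold change -0.61, adjusted p = 0.0618). It was also lost when libraries were scaled to totals without Rn45s (log2 fold change -0.35). Its log2 fold change was -0.49 ± 0.26 in WT CD8+, -0.07 ± 0.26 in Raptor KO CD4+ and 0.55 ± 0.26 in Raptor KO CD8+ cells, none of them called.

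The tRNAs that passed the test in the main fit rose, in CD4+ cells. mt-Tf, the first gene of the heavy-strand precursor, was at 14.9, 7.13 and 9.36 TMM-scaled CPM in stimulated WT CD4+ libraries, against 1.39, 0.645 and 2.05 in resting ones (log2 fold change 2.80 ± 0.77, adjusted p = 0.00236). mt-Tq was at 56.4, 14.3 and 16.2 stimulated, against 4.17, 3.23 and 4.62 resting (log2 fold change 2.69 ± 0.72, adjusted p = 0.003). mt-Tp was at 924, 303 and 200.1 stimulated, against 177, 122 and 69.8 resting (log2 fold change 1.95 ± 0.78, adjusted p = 0.0353). mt-Tf reached the filter's minimum in 9 stimulated and 0 resting libraries, with at most 9 counts in a resting library, so it was tested through the stimulated groups and its call is given as a description. The groups did not overlap for these 3 tRNAs. The first stimulated library was the highest for each, and without it the log2 fold change of mt-Tp was 1.06 and no longer called (adjusted p = 0.249). Of these, mt-Tf lies on the plus strand and mt-Tq and mt-Tp on the minus strand.

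mt-Tq also rose in stimulated Raptor KO CD4+ cells, at 26.2, 23.4 and 20.3 against 4.67, 4.28 and 8.60 in resting ones (log2 fold change 2.03 ± 0.71, adjusted p = 0.0226). With 1 library left out in turn that call held in 3 of 6 fits. The main edgeR fit called no tRNA in CD8+ cells, where the smallest adjusted p was 0.0553 in WT and 0.103 in Raptor KO. In WT CD8+ cells a fit of only the groups compared called 3 tRNAs higher, DESeq2 2 and no filter on low counts 1. Median-ratio size factors, TMM over nuclear protein-coding genes and the library block called 0 there. In Raptor KO CD8+ cells DESeq2 called 1. mt-Tf, mt-Tq and mt-Tp did not overlap between stimulated and resting WT CD8+ libraries. The share of all genes without overlap was not computed, so this is a description. mt-Tv, which lies between the rRNAs, was at 367, 122 and 82.6 TMM-scaled CPM in stimulated WT CD4+ libraries, against 161, 94.9 and 52.4 in resting ones, and at 134, 169.7 and 126 in stimulated WT CD8+ cells, against 171, 108 and 146 in resting ones. mt-Tm, the most abundant tRNA counted, ranged from 248 to 1676 TMM-scaled CPM within stimulated Raptor KO CD8+ cells alone. In the main fit neither mt-Tm nor mt-Tv was called in any of the 13 comparisons. Scaled to totals without Rn45s, 8 tRNAs were called higher in stimulated WT CD4+ cells, both of these among them, and 6 in WT CD8+, 3 in Raptor KO CD4+ and 3 in Raptor KO CD8+ cells. Like mt-Tf, mt-Ta was tested through the stimulated groups, with 3 stimulated and 0 resting libraries at the filter's minimum. Counts of tRNAs called higher can hold both, and are given as a description. The counts of mt-Tf, mt-Ta and mt-Tl2 were at most 34 in any library.

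**Figure D4:**
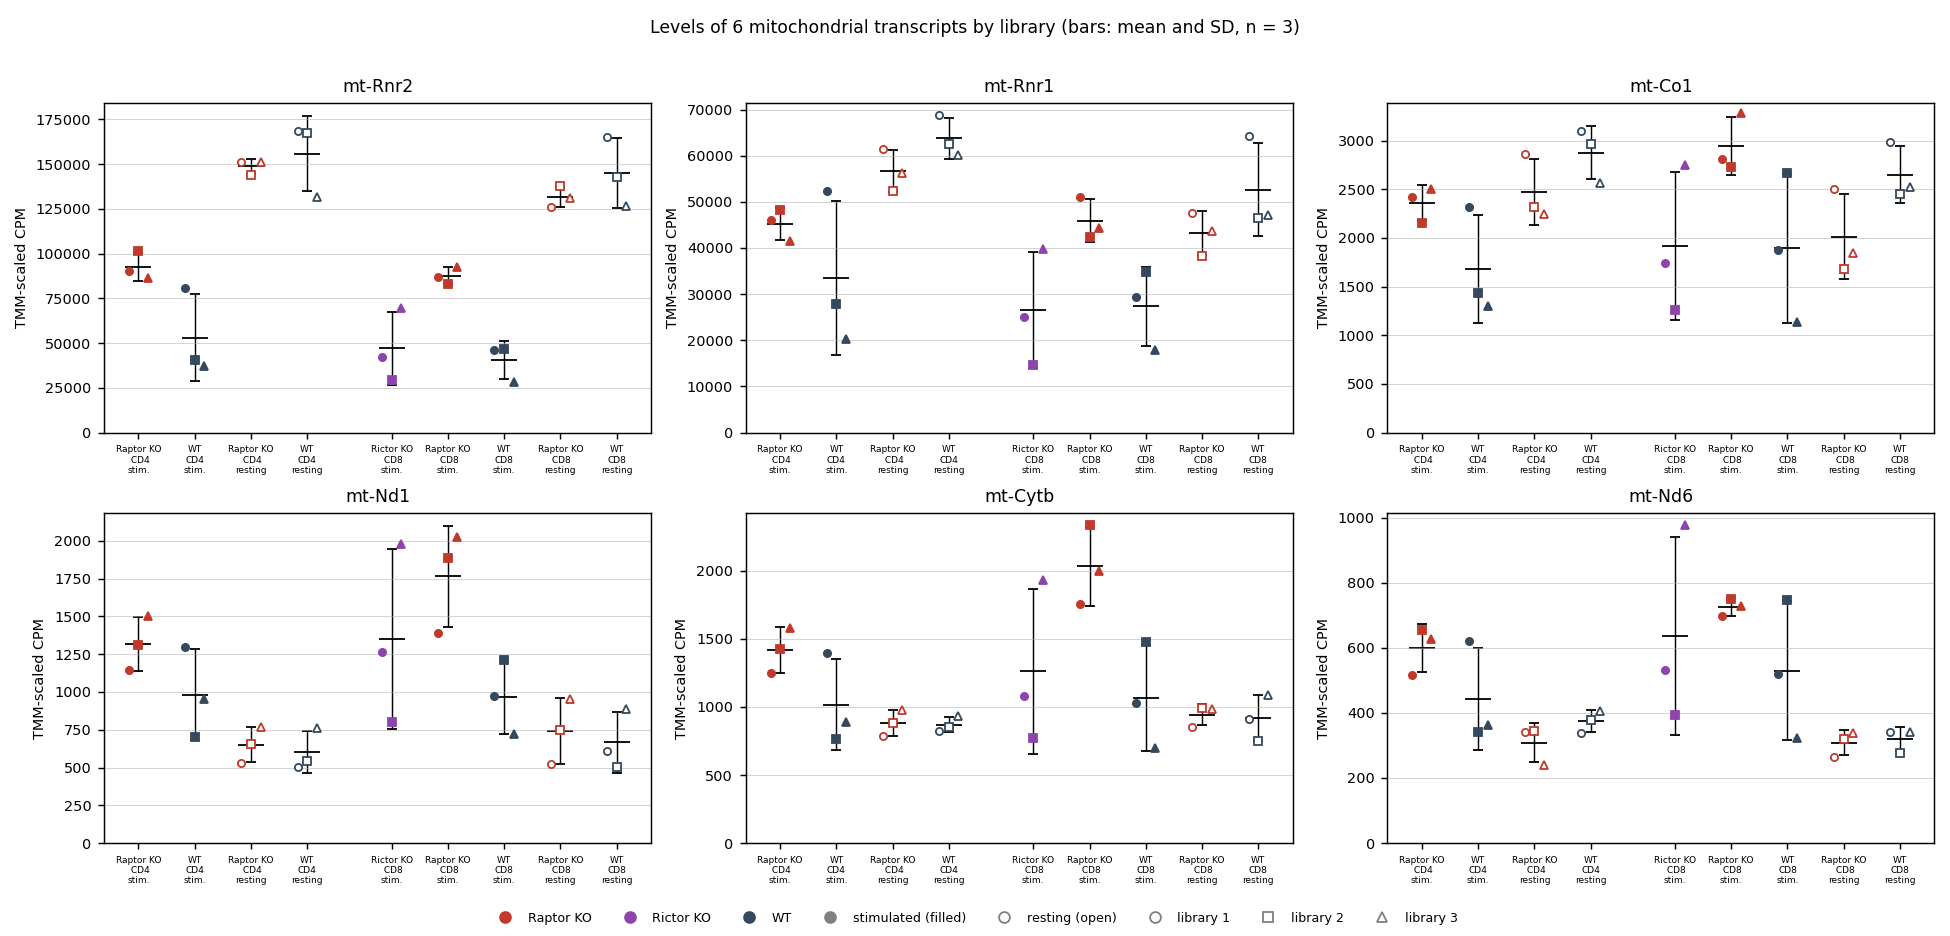
TMM-scaled CPM of mt-Rnr2, mt-Rnr1, mt-Co1, mt-Nd1, mt-Cytb and mt-Nd6 in each library by group; bars are the mean and SD of 3 libraries. Both rRNAs and mt-Co1 are lower in stimulated than in resting WT CD4+ cells, mt-Nd1, mt-Cytb and mt-Nd6 are higher in stimulated than in resting Raptor KO cells, and the first stimulated WT CD4+ library is the highest of its group throughout.

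The comparison of Raptor KO with WT asks which of these levels differ between cells with and without Raptor. It shares its libraries with the comparisons above, and loss of Raptor and the Cre transgene cannot be told apart in it. In stimulated CD8+ cells 1 member, mt-Cytb, rose and 0 fell, where 11.7% of all genes were called, 6.3% higher and 5.42% lower. mt-Cytb was at 1758, 2340.3 and 2000.2 TMM-scaled CPM in Raptor KO, against 1026, 1478 and 699 in WT, with no overlap (log2 fold change 0.93 ± 0.27, adjusted p = 0.0209). The call was lost without the first or the third stimulated WT CD8+ library and without the second or the third Raptor KO library. It was also lost with the library codes as a block, and with scaling to totals with or without Rn45s (log2 fold change 0.51 and 0.56). Without the second WT library 3 members were called, all higher. mt-Rnr2 was at 87106, 83055 and 92522 in Raptor KO, against 46308, 46939 and 28128 in WT, again with no overlap, but missed the threshold (log2 fold change 1.11 ± 0.41, adjusted p = 0.0689). mt-Nd1, mt-Nd3, mt-Nd4, mt-Nd5, mt-Co1 and mt-Rnr1 also did not overlap and had log2 fold changes of 0.87 ± 0.31, 1.02 ± 0.34, 0.87 ± 0.39, 0.62 ± 0.26, 0.64 ± 0.26 and 0.75 ± 0.38, with adjusted p between 0.0558 and 0.206. The share of all genes without overlap was not computed, so non-overlap is given only as a description of these libraries.

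In stimulated CD4+ cells 0 members were called by edgeR, where 17.4% of all genes were called, 8.82% higher and 8.56% lower. Of the members 2 had an unadjusted p under 0.05. DESeq2 called 1, mt-Rnr2, as higher. Scaling to totals with or without Rn45s, no filter on low counts and a fit of only the groups compared each called mt-Tf, the tRNA tested through stimulated groups, as lower (log2 fold change -1.95 to -1.48). mt-Rnr2 was at 90262, 101498 and 86316 TMM-scaled CPM in Raptor KO, against 81046, 40748 and 37188 in WT (log2 fold change 0.81 ± 0.41, adjusted p = 0.174), and the lowest Raptor KO library was above the highest WT one. Without the first WT library, which stood apart, 3 members were called, all higher (mt-Rnr2, mt-Co1 and mt-Nd5). The 8 mRNAs had log2 fold changes of 0.25 to 0.54, and scaled to totals without Rn45s, which moved the median of all genes by -0.37, they had -0.09 to 0.20, of which 2 were below 0.

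Within the 3 library codes printed in the sample titles, which the labels do not explain, summed mRNA per 1000 nuclear protein-coding counts in stimulated CD8+ cells was higher in Raptor KO than in WT in each code (28.0 against 19.2, 32.0 against 26.4 and 31.6 against 11.9). In stimulated CD4+ cells it was higher in 2 codes (24.8 against 13.5 and 25.0 against 14.7) and lower in 1 (22.5 against 23.9).

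At rest 0 members were called between Raptor KO and WT in CD4+ cells (0.143% of all genes called) or CD8+ cells (1.12% called), and 0 had an unadjusted p under 0.05 in either. DESeq2 also called 0 in both. The mRNA log2 fold changes were -0.35 to 0.25 in CD4+ and -0.40 to 0.25 in CD8+ cells. The interaction of stimulation and genotype called 0 members in CD4+ (5.82% of all genes called) and CD8+ cells (2.89% called), with 1 and 5 at an unadjusted p under 0.05, where DESeq2 called 0 and 1. In CD8+ cells mt-Co1 had the smallest adjusted p, with a difference in log2 fold change of 1.03 ± 0.36 (adjusted p = 0.111). Without the second stimulated WT CD8+ library 2 members were called there, mt-Co1 and mt-Nd5.

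Rictor KO was compared with WT in stimulated CD8+ cells, and 0 members were called by edgeR or DESeq2 (0.162% of all genes called), with 0 at an unadjusted p under 0.05. mt-Rnr2 was at 42284, 29593 and 69341 TMM-scaled CPM in Rictor KO, against 46308, 46939 and 28128 in WT, and mt-Nd1 at 1267, 802 and 1983 in Rictor KO, against 971, 1215 and 722 in WT. The third Rictor KO library was the highest for both. All 3 Rictor KO libraries carry the same library code, which 1 of the 3 WT libraries shares. Within that code summed mRNA per 1000 nuclear protein-coding counts was 19.0, 13.4 and 31.1 in Rictor KO, against 11.9 in the WT library, and with 1 WT library this was not tested. CD8+ against CD4+ cells of WT mice also gave 0 calls by edgeR or DESeq2, at rest (3.33% of all genes called, 0 at an unadjusted p under 0.05) and stimulated (5.18% called, 1 at an unadjusted p under 0.05).

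**Figure D5:**
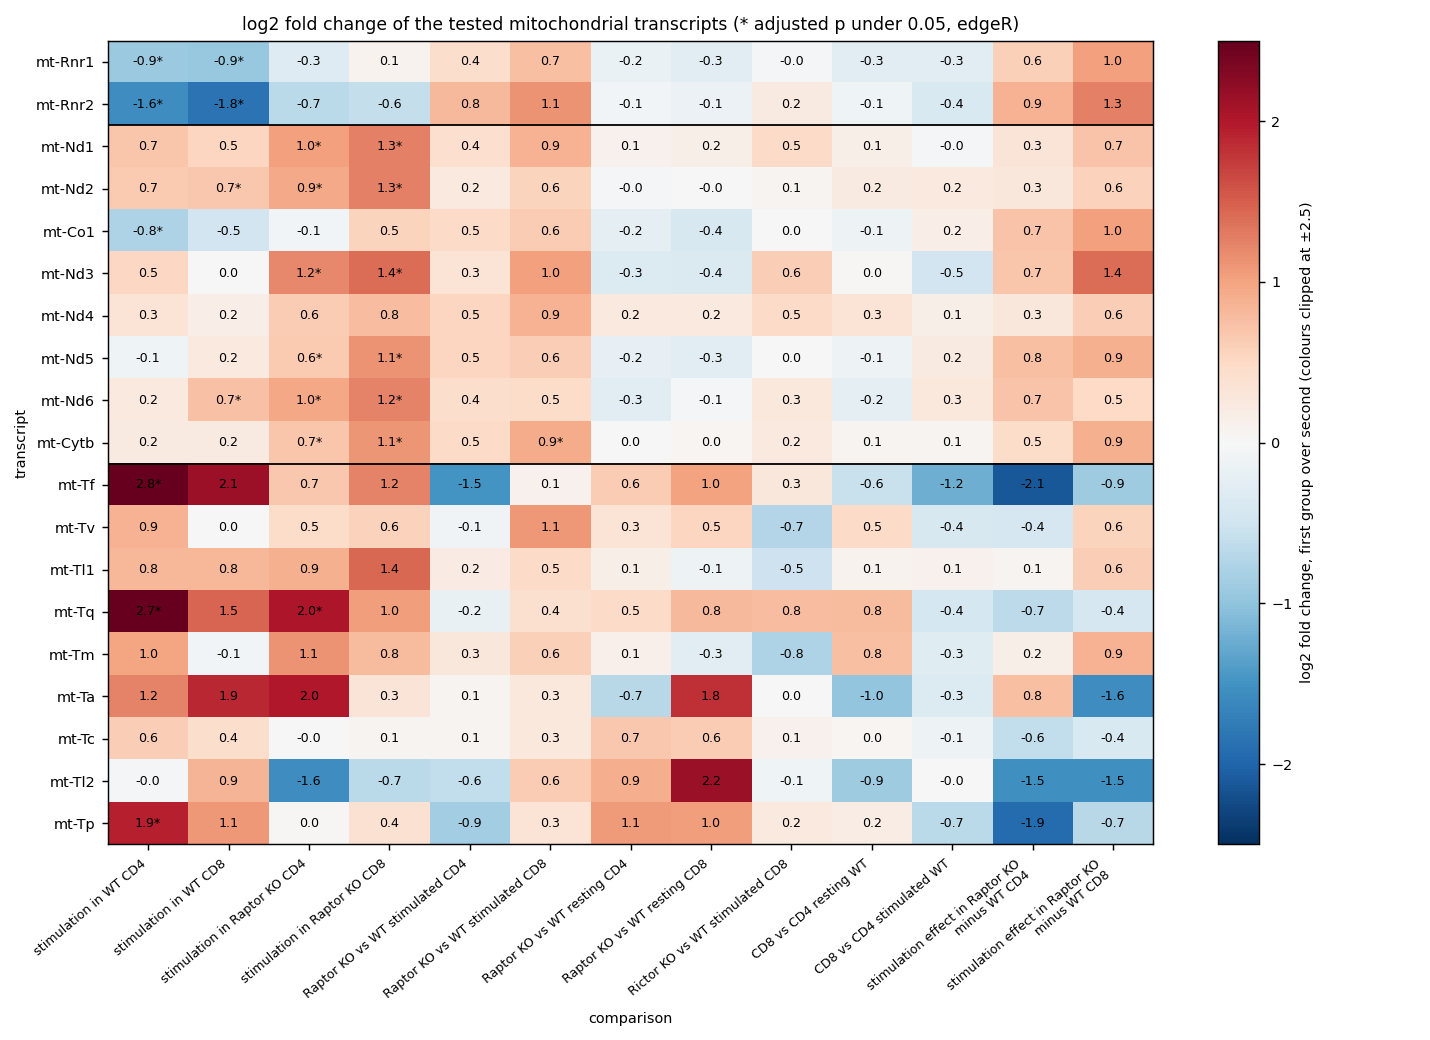
log2 fold changes of the 19 tested mitochondrial transcripts (rows: rRNAs, mRNAs, tRNAs) in 13 comparisons (columns), with asterisks at an adjusted p under 0.05 by edgeR. Calls stand in the 4 stimulation columns and, for mt-Cytb, in Raptor KO against WT stimulated CD8+ cells.

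The nuclear genes that make and keep mitochondrial RNA changed in both directions. Of 68 such genes, from transcription factors to tRNA enzymes, 63 were tested, and stimulation raised 25 and lowered 12 in WT CD4+ and raised 22 and lowered 10 in WT CD8+ cells, with median log2 fold changes of 0.25 and 0.23, against -0.03 and 0.00 over all genes. Of all tested genes 32.4% rose and 32.5% fell in WT CD4+ and 32.0% rose and 30.8% fell in WT CD8+ cells, which is the background of every list count of stimulation in WT given here. In transcription, Tfam averaged 33.1 ± 4.51 TMM-scaled CPM in stimulated WT CD4+ cells and 21.7 ± 4.25 in resting cells (SD, n = 3 each; log2 fold change 0.62 ± 0.18, adjusted p = 0.00307). Tfam packages mitochondrial DNA and starts its transcription. Polrmt averaged 14.4 ± 2.49 TMM-scaled CPM in stimulated WT CD4+ cells and 16.0 ± 4.94 in resting cells (SD, n = 3 each; log2 fold change -0.12 ± 0.27, adjusted p = 0.716), and it is the RNA polymerase itself. In DNA replication, Tk2 averaged 5.56 ± 2.14 TMM-scaled CPM in stimulated WT CD4+ cells and 30.4 ± 5.02 in resting cells (SD, n = 3 each; log2 fold change -2.46 ± 0.29, adjusted p = 1.65e-09), while Twnk averaged 16.7 ± 2.72 TMM-scaled CPM in stimulated WT CD4+ cells and 7.81 ± 0.978 in resting cells (SD, n = 3 each; log2 fold change 1.07 ± 0.33, adjusted p = 0.00465). Tk2 is the mitochondrial thymidine kinase and Twnk the helicase.

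Genes of RNA processing and stability gave the most calls in the higher direction. In processing 7 of 12 rose and 0 fell in WT CD4+ and 6 of 12 rose and 0 fell in WT CD8+ cells, and in stability and decay 5 rose and 1 fell of 7 in WT CD4+ and 6 rose and 0 fell in WT CD8+ cells. Elac2 averaged 38.3 ± 4.00 TMM-scaled CPM in stimulated WT CD4+ cells and 11.1 ± 4.19 in resting cells (SD, n = 3 each; log2 fold change 1.73 ± 0.26, adjusted p = 2.33e-07). Elac2 cuts the 3′ ends of mitochondrial tRNAs from the precursor. Lrpprc averaged 97.9 ± 9.66 TMM-scaled CPM in stimulated WT CD4+ cells and 30.5 ± 0.768 in resting cells (SD, n = 3 each; log2 fold change 1.69 ± 0.15, adjusted p = 1.05e-12). Lrpprc binds and stabilises mitochondrial mRNAs, though not the rRNAs.

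Among genes that modify the rRNAs or build the mitochondrial ribosome 4 rose and 3 fell of 10 in WT CD4+ and 2 rose and 2 fell in WT CD8+ cells. Ddx28 averaged 11.5 ± 1.61 TMM-scaled CPM in stimulated WT CD4+ cells and 1.81 ± 0.450 in resting cells (SD, n = 3 each; log2 fold change 2.61 ± 0.44, adjusted p = 2.08e-06). Ddx28 is a helicase of large-subunit assembly. Nsun4 averaged 11.6 ± 1.34 TMM-scaled CPM in stimulated WT CD4+ cells and 27.1 ± 7.04 in resting cells (SD, n = 3 each; log2 fold change -1.22 ± 0.24, adjusted p = 2.01e-05), and it methylates mt-Rnr1. Tfb1m, which methylates mt-Rnr1 at its 3′ end, did not pass the test, with log2 fold changes of 0.21 ± 0.67 (CD4+) and 1.01 ± 0.50 (CD8+). Of the 10 genes of tRNA maturation 2 rose and 2 fell in WT CD4+ and 1 rose and 0 fell in WT CD8+ cells. Trnt1, which adds the CCA end, had log2 fold changes of 0.25 ± 0.19 (CD4+) and 0.23 ± 0.19 (CD8+), neither of them called, and Trmu, which thiolates tRNAs, fell in CD4+ cells by 1.03 on the log2 scale (adjusted p = 0.0206). Among nuclear regulators the coactivator Pprc1 rose in both, with log2 fold changes of 1.31 ± 0.18 (CD4+) and 1.34 ± 0.18 (CD8+), and the transcription factor Nrf1 fell in CD8+ cells (log2 fold change -0.51 ± 0.19, adjusted p = 0.0187).

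Between Raptor KO and WT stimulated cells Lrpprc was lower. Lrpprc averaged 57.2 ± 3.00 TMM-scaled CPM in Raptor KO CD4+ cells and 97.9 ± 9.66 in WT CD4+ cells (SD, n = 3 each; log2 fold change -0.78 ± 0.14, adjusted p = 0.00012). Lrpprc averaged 65.1 ± 6.38 TMM-scaled CPM in Raptor KO CD8+ cells and 102 ± 12.4 in WT CD8+ cells (SD, n = 3 each; log2 fold change -0.65 ± 0.14, adjusted p = 0.00122). Elac2 averaged 20.4 ± 1.00 TMM-scaled CPM in Raptor KO CD4+ cells and 38.3 ± 4.00 in WT CD4+ cells (SD, n = 3 each; log2 fold change -0.90 ± 0.23, adjusted p = 0.00527). Polg averaged 37.2 ± 0.403 TMM-scaled CPM in Raptor KO CD8+ cells and 21.9 ± 3.32 in WT CD8+ cells (SD, n = 3 each; log2 fold change 0.77 ± 0.17, adjusted p = 0.00121), and Polg is the mitochondrial DNA polymerase. On this list 2 genes rose and 4 fell in CD4+ and 1 rose and 2 fell in CD8+ cells, of 63 tested, with medians of -0.08 and -0.03. Of all genes 8.82% rose and 8.56% fell in CD4+ and 6.3% rose and 5.42% fell in CD8+ cells, so the list gave no more calls than this background.

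Most nuclear-encoded partners of the mitochondrial subunits rose with stimulation. Of 68 nuclear-encoded subunits of complexes I, III, IV and V tested, 50 rose and 3 fell in WT CD4+ and 47 rose and 3 fell in WT CD8+ cells, with median log2 fold changes of 1.28 and 1.15. The 8 mitochondrial mRNAs had medians of 0.29 and 0.23 in the same comparisons. For complex IV all 10 nuclear subunits tested rose in both lineages, with medians of 1.74 (CD4+) and 1.66 (CD8+), against mt-Co1 at -0.77 and -0.49. For complex III 8 of 9 rose in each, with medians of 1.73 and 1.57, against mt-Cytb at 0.22 and 0.22. For complex I 20 rose and 2 fell of 34 in CD4+ and 17 rose and 2 fell in CD8+ cells, with medians of 0.99 and 0.78.

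In Raptor KO cells the medians of nuclear subunits and mitochondrial mRNAs lay closer together. Stimulation raised 47 and lowered 0 nuclear subunits in CD4+ and raised 48 and lowered 0 in CD8+ Raptor KO cells, where 27.9% (CD4+) and 29.5% (CD8+) of all genes rose. The medians were 0.93 and 0.98, against 0.82 and 1.18 for the mitochondrial mRNAs. Between Raptor KO and WT stimulated cells 0 nuclear subunits rose and 13 fell in CD4+ and 1 rose and 9 fell in CD8+ cells, of 68 tested, where 8.56% (CD4+) and 5.42% (CD8+) of all genes fell. The medians were -0.27 and -0.16, against 0.46 and 0.75 for the mitochondrial mRNAs. Scaled to totals without Rn45s the medians of the nuclear subunits were -0.68 and -0.59, and the mitochondrial mRNAs ranged from -0.09 to 0.20 (CD4+) and from 0.07 to 0.59 (CD8+). These counts and medians describe the lists, and the difference between the lists was not tested.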

How the data were processed

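The deposited table holds read counts per Ensembl gene, whole numbers that the authors left unnormalized. The aligner was STAR 2.6.0a and the genome build GRCm38, per the submitters' processing notes. How reads were counted, with or without strand, was not given in the sources used here. Symbols were matched for 26753 of 26802 rows from the GENCODE M21 annotation, and 49 rows were left unnamed. Rn45s was left out of library sizes, which were summed over the tested genes. Genes were kept by edgeR's filter (minimum count 10, minimum total 15), scaled by TMM and tested with the quasi-likelihood test (edgeR 4.0.16, R 4.3.3, robust), fitting the 9 group means to all 27 libraries at once, with Benjamini-Hochberg adjustment over 10493 genes in each of 13 comparisons. The procedure was tested on simulated data. The counts of a library limit the precision of its values. DESeq2 1.42.0, other scalings and filters, a block for the library codes of the sample titles, fits of only the groups compared and leaving out each library were alternatives. Windows of 50 bases and BLAST+ 2.17.0 matches of at least 90% identity compared mitochondrial with nuclear transcripts. Named members are the rRNAs, the mRNAs, the 3 most abundant tRNAs and up to 3 called tRNAs per comparison; named nuclear genes are the first 2 of each role and up to 3 called with the largest changes, of which a part is printed. Members and lists were chosen with earlier results of these data known.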

Additional observations from a re-analysis of the deposited data

Results flagged for a closer look

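mt-Nd5, a proton-pumping subunit of complex I, was flagged because its difference between Raptor KO and WT CD8+ cells ran in opposite directions at rest and after stimulation, with no overlap of libraries in either. Its log2 fold change of Raptor KO over WT was 0.62 in stimulated and -0.264 in resting CD8+ cells. The main edgeR fit called neither, and at rest the smallest adjusted p of any mRNA in CD8+ cells was 0.659. The share of all genes without overlap was not computed. The difference between these effects, tested as an interaction, was 0.88 ± 0.37 (SE) with an adjusted p of 0.207 by edgeR, so it did not pass the threshold.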

How the results depend on the processing

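Counts of called members, of 19 tested unless the filter changed, moved by over 1.5 times in 32 of 207 recomputed counts, and 0 directions of a called value reversed. Scaled to totals without Rn45s, 13 members were called for stimulation in WT CD4+, 14 in WT CD8+ and 11 in Raptor KO CD8+ cells, against 6, 4 and 6. Of all 10493 genes, this scaling called 4081 higher and 1765 lower in WT CD4+ cells. It called 5315 and 1150 in WT CD8+ and 4021 and 1119 in Raptor KO CD8+ cells. With Rn45s kept in the totals, 12 members were called in WT CD8+ and 4 in Raptor KO CD4+ cells, against 4 and 7. Of all genes, 4527 were then called higher and 1107 lower in WT CD8+, and 1571 and 1690 in Raptor KO CD4+ cells. For stimulation in WT CD8+ cells TMM over nuclear protein-coding genes gave 2 and a fit of only the groups compared gave 7, and leaving out a library gave 1 to 4. For Raptor KO against WT stimulated CD4+ cells (0 called), totals without Rn45s, totals with Rn45s, no filter on low counts and only the groups compared each gave 1 lower (mt-Tf), DESeq2 gave 1 higher (mt-Rnr2), and leaving out a library gave 0 to 3, with 3 without the first WT library. For stimulated CD8+ cells (1 called), both totals gave 0, while no filter, DESeq2 and only the groups compared gave 4 each, and leaving out a library gave 0 to 3. The interaction in CD8+ cells (0 called) gave 2 with no filter, 1 with DESeq2, 1 with only the groups compared and 0 to 2 without a library. Leaving out a library gave 4 to 7 for stimulation in WT CD4+, 5 to 7 in Raptor KO CD4+ and 6 to 9 in Raptor KO CD8+ cells. The cause was not tested.

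Correlations of same-numbered samples were -0.178 to 0.367, with 29 of 33 above 0 and 13 above 0.1. In 29 of 33 pairs the correlation was above the mean with other numbers. Values were centred within each group, so this count largely repeats the sign of the correlations. Either count is a hint from the data and not the design. In 0 of 11 comparisons did every pair exceed 0.1, so the numbers were not taken as pairs. With the library codes as a block 2 members were called for stimulation in WT CD8+ cells and 2 for Raptor KO against WT stimulated CD8+ cells, mt-Nd3 and mt-Rnr2. mt-Tf, mt-Ta and mt-Tl2 had 0 counts in some libraries.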
